A study of Mus musculus with 6 samples.

Results

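The nucleolus makes ribosomes. RNA polymerase I, started by the initiation factor RRN3, transcribes the ribosomal RNA precursor. Small nucleolar ribonucleoproteins (snoRNPs), which are complexes of guide RNA and protein, modify it, and a long series of nucleolar factors cuts, folds and assembles it into the small and the large ribosomal subunit. The transcription factor MYC binds E-box DNA, whose core sequence is CACGTG, and many genes of this pathway are known MYC targets, as are genes of nucleotide, polyamine and energy metabolism. SIRT7 is a sirtuin, an NAD-dependent deacylase, that resides largely in the nucleolus, and the title of the study links it to MYC activity. The genes described here are 43 listed genes of the pathway and of the MYC programme. A gene was taken where a probe set of the array carried its symbol and no other in the platform annotation, and its brightest probe set over the 6 arrays was used. This gave 39 of the 43 genes, among 12393 genes named in this way on the array. They are 6 genes of the polymerase I machinery, 8 of 9 snoRNP genes, 20 of 22 genes of processing factors and 5 of 6 other MYC targets. Dkc1, Nob1, Mrto4 and Phb were not used here. All 39 had a mean log2 value of at least 4, the minimum for testing, which left 8343 genes tested in all.

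Liver RNA came from 3 wild-type samples and 3 samples in which the Sirt7 allele is given as knocked out, and each sample was hybridised to its own 1-colour Affymetrix array. The sources used here give no strain, age, sex, diet or time of dissection, nor whether the allele was deleted in the whole animal, and they describe no treatment that set the groups apart. The samples are called livers below and are named by group and replicate. Values are the deposited log2 expression values, so that a difference of 1 is 2-fold, and differences are knockout minus wild type.

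The arrays carried liver RNA: over the 6 livers Alb ranged from 12.41 to 13.10 and Ttr from 13.04 to 13.31, both genes of abundant hepatocyte proteins. Sirt7 was at 9.85, 9.80 and 9.57 in the wild-type livers and at 2.38, 3.11 and 2.86 in the knockout livers, which matches the labels (difference -6.96, SE 0.23, limma adjusted p = 3.99e-06). Myc was near the testing minimum, at 4.12, 4.45 and 4.08 in wild-type and 3.48, 4.53 and 4.20 in knockout livers, and the groups overlapped (-0.15, SE 0.28, adjusted p = 0.92). A list of 33 tested genes of DNA replication and the cell cycle set the wild-type livers apart from each other: taken as the median deviation from each gene's mean over the 6 livers, wild-type replicates 1 and 2 lay at -0.81 and -0.99, wild-type replicate 3 at 0.30 and the knockout livers at 0.57, 0.54 and 0.46. Wild-type replicate 3 thus lay with the knockout livers in this list, so results that turn on it are also given without it.

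The promoters show the E-box that MYC binds and the members of the group that carry it. RefSeq windows of 300 bases (250 before and 50 after an annotated start, assembly GRCm38.p6) were found for 38 of the 43 genes; Fbl, Npm1, Bop1, Rrs1 and Srm had no entry. The letters CACGTG, searched on both strands as they are their own reverse complement, were in the window of 7 of the 38 genes (18.4%, exact 95% interval 7.74 to 34.3) and of 2187 of all 27025 genes in the table (8.09%). The 7 were Rrn3, Imp4, Nop2, Pes1, Wdr43, Ldha and Phb, and none of the 8 snoRNP genes with a window had a match (0). A gene with several windows was counted where any of them matched, and its window with the most matches is printed. Another Ldha window, from chr7:46846832, had no match (0). The 250 bases before the start are printed for a polymerase I factor and a metabolic target with 2 matches each (Rrn3 and Ldha) and for a processing factor with 1 (Nop2). They are also printed for the 2 genes with the smallest p in the expression comparison, Ebna1bp2 and Ranbp1, in which these 6 letters were not found. Capitals mark CACGTG. In Ranbp1 they mark the near form CGCGTG. The strand is that of the gene.
Rrn3, chr16:13780449-13780698, plus strand: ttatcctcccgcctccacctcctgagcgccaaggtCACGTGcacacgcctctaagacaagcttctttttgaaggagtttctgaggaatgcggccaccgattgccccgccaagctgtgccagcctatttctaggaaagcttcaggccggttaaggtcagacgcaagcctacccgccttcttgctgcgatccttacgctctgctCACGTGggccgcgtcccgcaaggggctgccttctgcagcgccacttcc
Ldha, chr7:46845554-46845803, plus strand: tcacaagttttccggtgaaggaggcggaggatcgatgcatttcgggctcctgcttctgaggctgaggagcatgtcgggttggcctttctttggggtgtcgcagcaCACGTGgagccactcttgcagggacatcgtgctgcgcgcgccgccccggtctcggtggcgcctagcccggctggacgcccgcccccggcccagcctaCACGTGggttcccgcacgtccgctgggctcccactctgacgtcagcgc
Nop2, chr6:125131633-125131882, plus strand: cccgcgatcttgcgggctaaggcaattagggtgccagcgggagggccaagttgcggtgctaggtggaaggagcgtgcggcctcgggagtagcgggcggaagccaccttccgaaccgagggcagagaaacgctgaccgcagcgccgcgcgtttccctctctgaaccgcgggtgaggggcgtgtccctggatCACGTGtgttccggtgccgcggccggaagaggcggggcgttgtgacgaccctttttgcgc
Ebna1bp2, chr4:118620549-118620798, plus strand: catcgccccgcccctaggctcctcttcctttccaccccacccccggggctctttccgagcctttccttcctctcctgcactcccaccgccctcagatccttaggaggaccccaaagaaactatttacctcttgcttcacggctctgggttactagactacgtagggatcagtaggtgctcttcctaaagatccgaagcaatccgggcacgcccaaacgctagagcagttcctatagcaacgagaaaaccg
Ranbp1, chr16:18248695-18248944, minus strand: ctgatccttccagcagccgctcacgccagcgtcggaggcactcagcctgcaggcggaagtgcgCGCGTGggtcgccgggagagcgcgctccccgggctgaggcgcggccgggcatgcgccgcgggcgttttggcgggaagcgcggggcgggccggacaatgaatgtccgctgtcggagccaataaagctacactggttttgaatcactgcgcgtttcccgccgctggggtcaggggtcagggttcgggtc
The first base of the matches lies at -215 and -48 in Rrn3, at -145 and -48 in Ldha and at -60 in Nop2, counted back from the annotated start. The near forms searched were CATGTG with its reverse complement CACATG, as well as CACGCG with its reverse complement CGCGTG. With these counted too, 63.2% of the 38 genes and 30.9% of all genes had a match. The 6 genes with CACGTG that were measured differed by a median of 0.116 (5 above 0, range -0.25 to 0.20), and the 28 measured genes whose windows lack it by a median of -0.025 (12 above 0, range -0.80 to 0.61). A match is a description of the letters in this window and was not tested for binding. The 38 genes were a chosen list, and the shares beside theirs are of all genes with a window, not of the genes on the array.

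Across the 39 genes, wild-type and knockout livers differed little. Differences ranged from -0.80 to 0.61 with a median of -0.020, against a median of -0.032 over all genes tested. With each array centred on its median, both medians shifted alike, to 0.031 for the 39 genes and 0.019 for all genes. Of the genes, 19 genes were above 0 (45.4% of all genes tested) and 20 below. None passed limma's threshold (0 of 39, smallest adjusted p = 0.76), where 2 of 8343 genes did (0.0240%). With arrays weighted by how closely they fitted their group, limma called 3 of the 39 (Ebna1bp2 higher, Nop58 and Ldha lower) and 1748 of 8343 genes. That fit rested largely on knockout replicate 2 in its group (weight 6.12, against 0.514 and 0.310 for knockout replicates 1 and 3). At an unadjusted p under 0.05 there were 2 genes, both higher in knockout livers (Ebna1bp2 and Ranbp1), and 0 lower, where 6.46% of all genes passed, 3.04% toward higher and 3.42% toward lower values. The groups did not overlap in 6 genes, 4 of them higher in knockout livers (Ncl, Npm1, Ebna1bp2 and Ranbp1) and 2 lower (Polr1d and Nip7); over all genes tested this share was 9.74%, with 4.27% higher and 5.48% lower. The precision allows limits to be given. The 95% interval of the difference lay within 2-fold in both directions for 35 of the 39 genes (79.6% of all genes tested). It lay within 1.5-fold for 10 of the 39, and for 1991 of all 8343 genes tested. Those not held within 2-fold were Cad, Ebna1bp2, Ranbp1 and Rrs1.

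**Figure D1:**
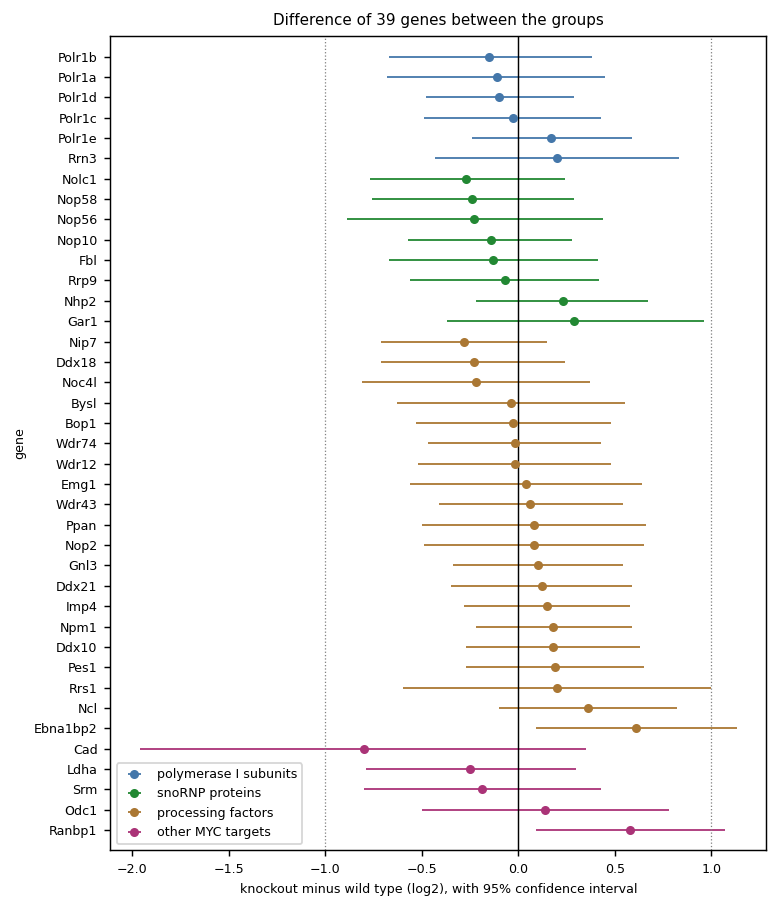
Difference between the groups for each of the 39 genes (log2, knockout minus wild type; points, limma estimates; bars, 95% confidence intervals; n = 3 livers a group; dotted lines at 2-fold; colours, subgroups). Estimates lie between -0.80 (Cad) and 0.61 (Ebna1bp2), and the intervals of Ebna1bp2 and Ranbp1 are the ones that do not cross 0 before adjustment.

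The polymerase I machinery did not pass the test in any of its 6 genes (0 called by limma, 0 at an unadjusted p under 0.05, smallest adjusted p = 0.859). The median difference was -0.062, with 2 genes above 0 and 4 below, where 45.4% of all genes tested were above 0. Polr1a, which encodes the largest, catalytic subunit, was at 5.66, 5.45 and 5.40 in wild-type livers and 5.05, 5.22 and 5.89 in knockout livers. Polr1b, the second-largest subunit, was at 5.34, 5.01 and 5.16 against 4.61, 5.13 and 5.33. For both genes knockout replicate 1 was the lowest liver, and the wild-type values lay inside the knockout range for Polr1a but not for Polr1b, whose wild-type replicate 1 was the highest liver. Their differences of -0.11 (SE 0.25) and -0.15 (SE 0.23) were smaller than their errors.
Polr1c and Polr1d encode subunits shared with RNA polymerase III. Polr1c was at 9.40, 9.60 and 9.52 in wild-type and 9.65, 9.61 and 9.17 in knockout livers (-0.03, SE 0.20). Polr1d was at 10.91, 10.94 and 10.90 against 10.80, 10.89 and 10.77. Every knockout value of Polr1d lay below every wild-type value, by as little as 0.10 on average (SE 0.17, limma adjusted p = 0.911). Polr1e, the subunit known as PAF53, was at 8.30, 8.43 and 8.11 against 8.56, 8.41 and 8.39 (0.17, SE 0.18). Rrn3, the initiation factor whose promoter carries a pair of E-boxes, was at 10.40, 9.62 and 9.61 in wild-type livers and 10.11, 10.39 and 9.72 in knockout livers. Both groups thus held high and low livers, and the difference was 0.20 (SE 0.28, adjusted p = 0.883).

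The snoRNP proteins had a median difference of -0.139 over 8 genes, 2 above 0 and 6 below, where 45.4% of all genes tested were above 0. Limma called 0 of the 8 (0 at an unadjusted p under 0.05, smallest adjusted p = 0.831). The core of the box C/D particles, which guide methylation of ribosomal RNA, is made of the methyltransferase fibrillarin (Fbl) and the scaffold proteins NOP56 and NOP58. Fbl was at 9.10, 9.35 and 9.55 in wild-type and 8.94, 9.04 and 9.61 in knockout livers. Nop56 was at 9.68, 9.83 and 9.73 against 8.89, 9.59 and 10.08, and Nop58 at 7.65, 7.59 and 7.55 against 7.14, 7.13 and 7.82. In all 3 genes knockout replicate 3 was the highest of the 6 livers and knockout replicate 1 or 2 the lowest. The wild-type livers spanned little in the scaffold genes (SD 0.08 for Nop56 and 0.05 for Nop58) and the knockout livers more (SD 0.60 and 0.40). The differences were -0.13 for Fbl (SE 0.24), -0.23 for Nop56 (SE 0.29) and -0.24 for Nop58 (SE 0.23). Nop56 differed by 0.09 without knockout replicate 1 and by -0.51 without knockout replicate 3. Rrp9, which marks the U3 particle of the same class, differed by -0.07 (SE 0.21).
The box H/ACA particles guide pseudouridylation. Of their proteins, Nhp2 was at 8.56, 8.79 and 9.04 in wild-type livers and 9.09, 8.98 and 9.00 in knockout livers, and Gar1 at 6.97, 6.80 and 7.81 against 7.81, 7.28 and 7.37. In both genes wild-type replicates 1 and 2 were the lowest livers and wild-type replicate 3 lay within the knockout range. Nhp2 differed by 0.23 (SE 0.19) and Gar1 by 0.29 (SE 0.29), and without wild-type replicate 3 by 0.35 and 0.60. At the other end, Nhp2 differed by 0.11 without wild-type replicate 1 and Gar1 by 0.10 without wild-type replicate 2. The small H/ACA protein gene Nop10 differed by -0.14 (SE 0.19). Nolc1, which encodes the snoRNP chaperone NOPP140, was at 9.62, 9.21 and 9.93 against 9.41, 9.28 and 9.26 (-0.27, SE 0.22). Wild-type livers were both its highest and its lowest. Nolc1 differed by -0.10 without wild-type replicate 3 and by -0.45 without wild-type replicate 2.

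The 20 processing and assembly factors had a median difference of 0.082, 13 above 0 and 7 below, where 45.4% of all genes tested were above 0. Limma called 0 of them (smallest adjusted p = 0.76), and 1 had an unadjusted p under 0.05, where 6.46% of all genes passed. That gene was Ebna1bp2, which encodes the large-subunit assembly factor EBP2. It was at 7.57, 7.68 and 8.15 in wild-type and 8.69, 8.22 and 8.31 in knockout livers, and each of the 3 knockout livers lay above every wild-type liver. The difference was 0.61 (1.53-fold, SE 0.23, limma adjusted p = 0.76). Without 1 array its difference lay between 0.47 (without knockout replicate 1) and 0.78 (without wild-type replicate 3). Averaged with its second, dim probe set it differed by 0.37 and no longer had an unadjusted p under 0.05, which left 1 of the 39 genes, Ranbp1 (3.15% of all genes higher).
Ncl encodes nucleolin, an abundant protein of the nucleolus that binds ribosomal RNA. It was at 9.79, 10.01 and 10.29 in wild-type and 10.52, 10.32 and 10.32 in knockout livers, so that the groups did not overlap (0.36, SE 0.20, adjusted p = 0.794). Npm1, the gene of the histone and ribosome chaperone nucleophosmin, was at 10.73, 10.94 and 11.01 against 11.08, 11.05 and 11.11 (0.18, SE 0.18). In both genes wild-type replicate 3 was the wild-type liver closest to the knockout livers, at a distance of 0.03 for Ncl and 0.04 for Npm1. Without this liver Ncl differed by 0.49 and Npm1 by 0.24, and without wild-type replicate 1 by 0.24 and 0.10.
Nip7 and Ddx18, a large-subunit biogenesis factor and a nucleolar RNA helicase, had values in the other direction. Nip7 was at 8.23, 8.25 and 8.57 in wild-type and 8.20, 7.99 and 8.02 in knockout livers, and the groups did not overlap, although knockout replicate 1 and wild-type replicate 1 were nearly level (-0.28, SE 0.19, adjusted p = 0.797). Ddx18 was at 8.69, 8.47 and 8.41 against 8.17, 8.10 and 8.61 (-0.23, SE 0.21), with knockout replicate 3 inside the wild-type range. On their other probe sets with a mean of at least 4, Ddx18 differed by 0.15 and Nip7 by -0.05. Gnl3, the gene of the nucleolar GTPase nucleostemin, was at 9.71, 10.07 and 9.77 against 9.79, 9.95 and 10.10, overlapping values with a difference of 0.10 (SE 0.19).
The PeBoW complex of Pes1, Bop1 and Wdr12, needed for large-subunit assembly, had differences of 0.19 (SE 0.20), -0.03 (SE 0.22) and -0.02 (SE 0.22). Those of Bop1 and Wdr12 were far smaller than their errors. Rrs1, a factor of large-subunit assembly, was the most variable processing factor among knockout livers, at 9.02, 8.66 and 7.65 against 8.33, 7.87 and 8.52 in wild-type livers, and knockout livers were both the highest and the lowest (0.20, SE 0.35). The other 10 processing factors differed by -0.22 (Noc4l) to 0.18 (Ddx10), each with an unadjusted limma p above 0.05.

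**Figure D2:**
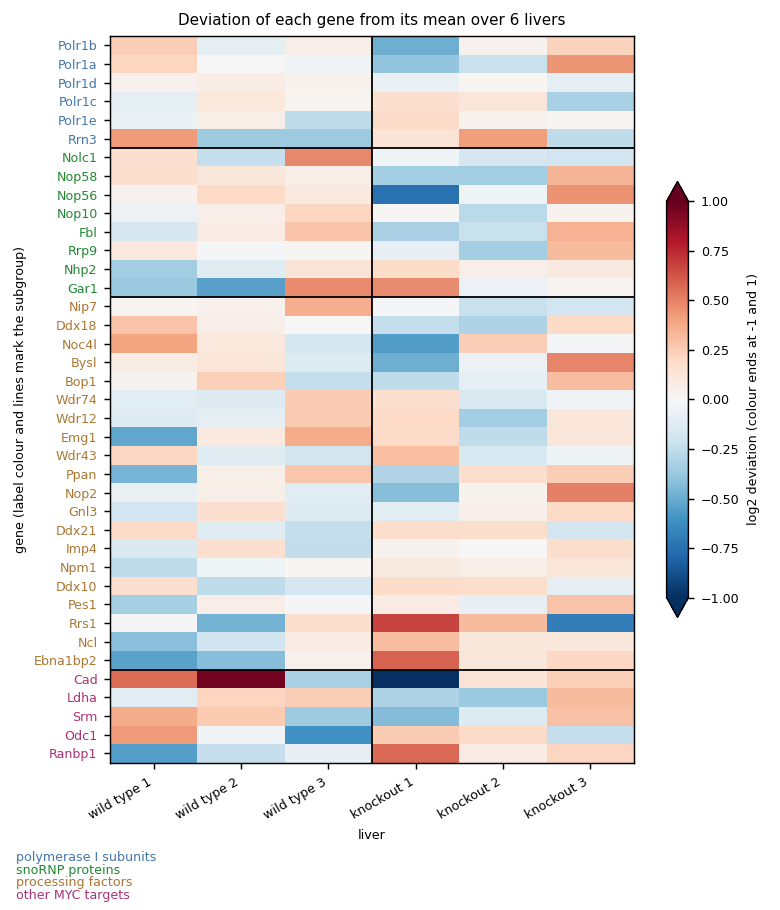
Deviation of each of the 39 genes from its own mean over the 6 livers (colour, log2, ends at -1 and 1; rows, genes in their 4 subgroups, ordered within each by the difference between the groups; columns, livers). Ncl, Npm1, Ebna1bp2, Ranbp1, Nhp2 and Gar1 are lowest in wild-type replicates 1 and 2, whereas Nop56, Bysl, Nop2 and Polr1a are lowest in knockout replicate 1 and highest in knockout replicate 3.

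The other MYC targets encode metabolic and transport proteins, and their median difference was -0.187 over 5 genes, 2 above 0 and 3 below. Of all genes tested, 45.4% were above 0. Limma called 0 of the 5 (smallest adjusted p = 0.76), and 1 had an unadjusted p under 0.05, where 6.46% of all genes passed. Ranbp1, a regulator of the nuclear transport GTPase Ran, was that gene. It was at 7.42, 7.74 and 7.89 in wild-type livers and 8.54, 8.05 and 8.19 in knockout livers, again without overlap. The difference was 0.58 (1.49-fold, SE 0.22, limma adjusted p = 0.76). Without 1 array it lay between 0.44 (without knockout replicate 1) and 0.68 (without wild-type replicate 3).
Cad, which encodes the enzyme of the first steps of pyrimidine synthesis, varied more than any other gene of the group. It was at 7.77, 8.18 and 6.89 in wild-type and 5.63, 7.35 and 7.45 in knockout livers, so that knockout replicate 1 and wild-type replicate 3 were the lowest livers. The difference of -0.80 had an interval of -1.96 to 0.35 (SE 0.51, adjusted p = 0.796), and without 1 array it lay between -1.16 (without wild-type replicate 3) and -0.21 (without knockout replicate 1). A second probe set differed by -0.29.
Polyamine synthesis is represented by Odc1, its rate-limiting decarboxylase, and by the spermidine synthase gene Srm. Odc1 was at 11.03, 10.58 and 10.00 against 10.86, 10.80 and 10.37 (0.14, SE 0.28). Srm was at 9.35, 9.24 and 8.62 against 8.54, 8.84 and 9.27 (-0.19, SE 0.27). Wild-type replicate 3 was low in both genes, and the groups overlapped throughout. Without it Odc1 differed by -0.13 and Srm by -0.41. At the other end, Odc1 differed by 0.38 without wild-type replicate 1 and Srm by -0.02 without knockout replicate 1. Ldha, the lactate dehydrogenase gene with a pair of E-boxes in its printed window, was at 12.41, 12.73 and 12.76 against 12.20, 12.14 and 12.83. Knockout replicates 1 and 2 were its lowest livers and knockout replicate 3 its highest (-0.25, SE 0.24, adjusted p = 0.849).

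**Figure D3:**
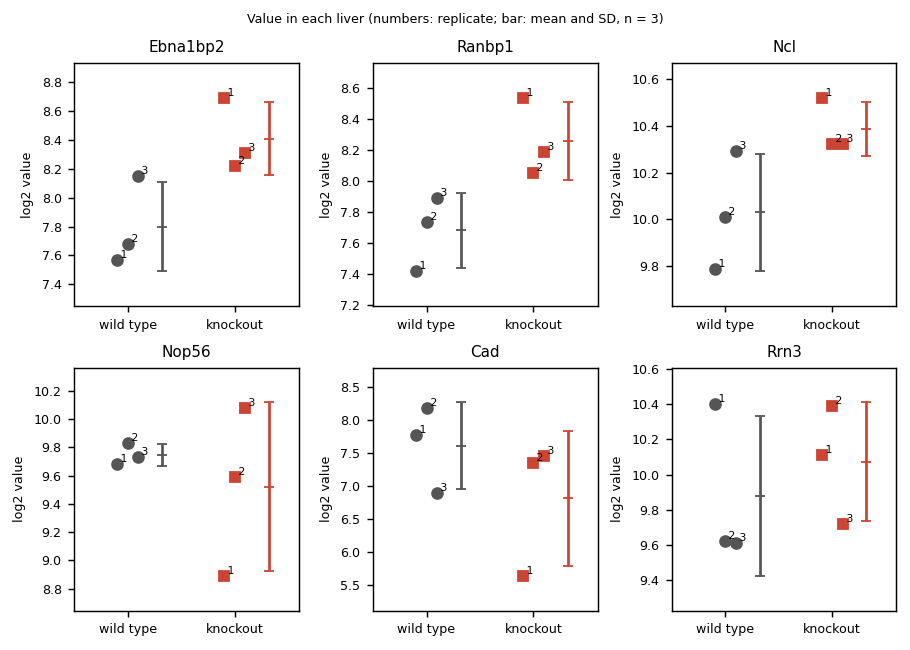
Log2 value of 6 genes in each liver (circles, wild type; squares, knockout; small numbers, replicate; bars, mean and SD, n = 3; vertical axes differ and do not start at 0). Ebna1bp2, Ranbp1 and Ncl do not overlap between the groups, whereas in Nop56 and Cad knockout replicate 1 lies lowest and in Rrn3 both groups spread over the same range.

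Livers of the same group also differed. The median SD over the 39 genes was 0.21 in wild-type and 0.27 in knockout livers (0.23 and 0.28 over all genes tested), and 20 of 39 genes had the larger SD in knockout livers (59.6% of all genes tested). Patterns chosen after the values were seen describe which livers were high or low. Wild-type replicates 1 and 2 were the lowest of the 6 livers in 6 genes (15.4%, against 12.4% of all genes tested): Gar1, Nhp2, Ncl, Npm1, Ebna1bp2 and Ranbp1. The same held for 24 of the 33 genes of the DNA replication and cell cycle list, which include Mcm6 (5.85, 7.15 and 7.21 in wild-type and 8.08, 9.04 and 8.04 in knockout livers) and the proliferation marker Mki67 (4.61, 4.17 and 7.06 against 6.94, 7.64 and 7.33). The part of that list in the values of Ebna1bp2 and Ranbp1 was not tested. Knockout replicate 3 was the highest liver in 13 of the 39 genes (33.3%, against 20.4% of all genes tested). The lowest liver was knockout replicate 1 in 10 of the 39 genes (25.6%, against 29.0% of all genes tested). Knockout replicate 1 was the lowest and knockout replicate 3 the highest in 6 genes (15.4%, against 9.49%), namely Polr1a, Fbl, Nop56, Nop2, Bop1 and Bysl.
The 8 tested hepatocyte markers had a median deviation of -0.01, 0.11 and 0.18 in wild type against -0.09, -0.29 and 0.18 in knockout. For the snoRNP genes it was 0.00, 0.03 and 0.17 against -0.06, -0.20 and 0.20. For the 41 tested cytosolic ribosomal protein genes it was -0.07, 0.07 and 0.18 against -0.08, -0.16 and 0.16. Each of these lists was thus lowest in knockout replicate 2 and high in the third liver of either group. Over all genes tested the median deviation was 0.02, 0.03 and 0.02 against -0.05, -0.04 and 0.07. The part of one list in another was not tested. In whole liver, fewer cells of a type and less RNA per cell cannot be told apart. On the log2 scale, the summed level of the 8 hepatocyte markers was 15.73 to 15.86 in wild-type and 15.54 to 15.94 in knockout livers. That of 9 Kupffer cell and macrophage markers was 13.10 to 13.35 and 13.22 to 13.34, and that of 8 lymphocyte markers (6 with a mean of at least 4) 8.69 to 9.43 and 8.72 to 9.97. The 5 cholangiocyte markers, 3 of them with a mean of at least 4, summed to 6.59 to 6.97 and 6.40 to 6.67, the 7 endothelial ones to 11.62 to 11.67 and 11.54 to 11.65, and the 7 stellate ones to 11.72 to 12.23 and 11.71 to 12.12. The 5 erythroid markers, 3 of them with a mean of at least 4 and Hba-a1 at 2.66 or lower, summed to 10.17 to 10.47 and 9.72 to 10.59. The ranges of both groups overlapped for these 7 lists, but a sum mostly follows its brightest genes. Gene by gene, 7 of 9 Kupffer cell and macrophage markers were above 0 and 2 below. At an unadjusted limma p under 0.05, 2 of these were higher (3.04% of all genes tested). Of 3 cholangiocyte markers 1 was lower (3.42% of all genes), and of 3 erythroid ones 1 was higher. The other lists had none, and limma called 0 markers. The part of the cell types in the results was not tested.

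**Figure D4:**
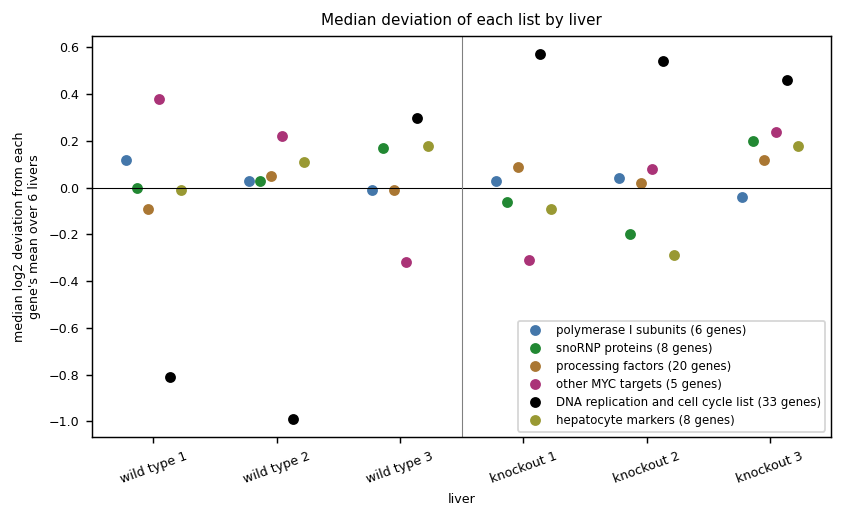
Median deviation of the genes of each list from their own mean over the 6 livers (log2; points, livers; colours, the 4 subgroups, the DNA replication and cell cycle list and the hepatocyte markers). The cell cycle list separates wild-type replicates 1 and 2 (-0.81 and -0.99) from the other livers, whereas the medians of the 4 subgroups stay between -0.32 and 0.38 and interleave between the groups.

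The counts at an unadjusted p under 0.05 changed when 1 liver was left out, a comparison added after the data were seen. Each such fit also had fewer arrays, and the parts of the missing liver and of the smaller number cannot be told apart. Without wild-type replicate 2, for example, Ranbp1 differed by 0.61 against 0.58 with all arrays, but its unadjusted limma p was 0.0555. Without wild-type replicate 3, Ncl and Gar1 joined Ebna1bp2 and Ranbp1, 4 genes higher and 0 lower, where 6.11% of all genes were higher and 5.66% lower. Without wild-type replicate 1, wild-type replicate 2 or knockout replicate 1 there were 0 genes in either direction, where 1.41%, 1.47% and 2.37% of all genes were higher and 1.92%, 1.56% and 2.05% lower. Without knockout replicate 2, Ebna1bp2 and Ranbp1 were higher (2 genes, 0 lower), where 2.12% of all genes were higher and 1.95% lower. Without knockout replicate 3, Nop58 and Ldha were lower (2 genes), beside Ebna1bp2 and Ranbp1 higher (2), where 11.0% of all genes were lower and 5.57% higher. Limma called 0 of the 39 genes in each of these 6 fits.

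A second reading of the same transcript was possible for 21 of the 39 genes, which had more than 1 probe set with a mean of at least 4. In 12 of the 21 the probe sets of 1 gene differed in sign. This held for the 4 polymerase I genes with several probe sets: Polr1a differed by -0.11 on the probe set used and by 0.27 and 0.23 on its others, Polr1c by -0.03 and 0.30, Polr1d by -0.10 and 0.34, and Polr1e by 0.17 and -0.03. With the probe sets of a gene averaged, the median of the polymerase I machinery was 0.127 in place of -0.062. Nucleolin was read by 4 probe sets, at 0.36, 0.14, -0.21 and 0.75, and Nop56 by 2, at -0.23 and 0.27. Of the other snoRNP genes, Fbl differed by -0.13 and 0.10, Nop10 by -0.14 and 0.04, and Nolc1 by -0.27, 0.04 and -0.03. With probe sets averaged, the snoRNP median was -0.034 in place of -0.139. The 2 probe sets of Npm1 (0.18 and 0.53) and of Nhp2 (0.23 and 0.52) had the same sign. Bysl, a small-subunit factor, differed by -0.04 on the probe set used and by -0.84 on the other. Ranbp1 had 1 probe set, and the second of Ebna1bp2 was near the floor of the array (mean 2.13).

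**Figure D5:**
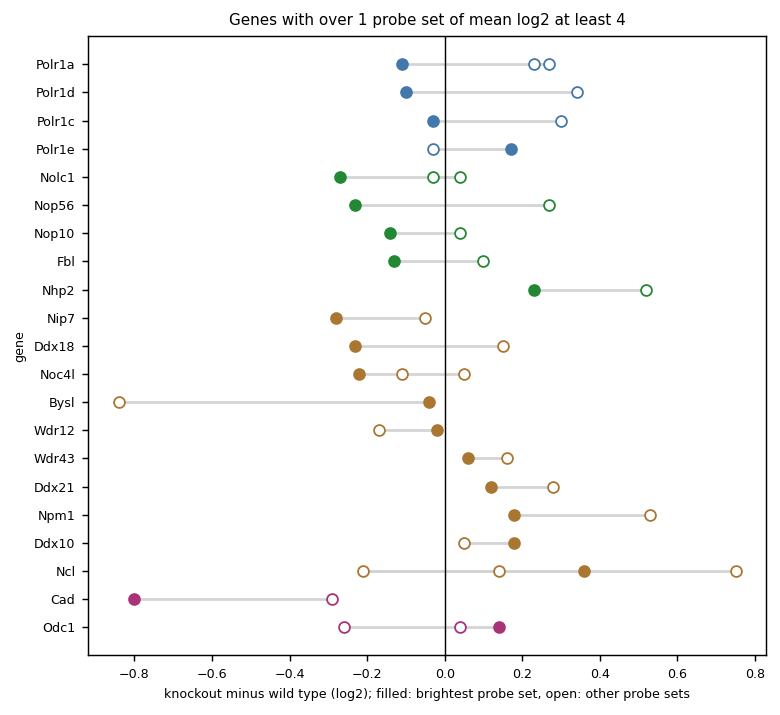
Difference between the groups (log2, knockout minus wild type) on each probe set of the 21 genes with more than 1 probe set of mean log2 at least 4 (filled, brightest probe set, used for the gene; open, other probe sets; colours, subgroups as in the other plots). The probe sets fall on both sides of 0 for 12 genes, and range from -0.21 to 0.75 for Ncl.

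Limma called 0 genes in each of 5 wider lists of the pathway. For comparison, 45.4% of all genes tested were above 0, and at an unadjusted p under 0.05 3.04% were higher and 3.42% lower. Of 11 tested genes of polymerase I transcription factors and shared subunits, 9 were above 0 and 2 below (median 0.150). At an unadjusted p under 0.05 there was 1 gene, higher in knockout livers (9.09% of the list). That gene was Taf1d, of the promoter selectivity complex, at 7.04, 6.84 and 6.96 in wild-type and 7.41, 7.68 and 7.19 in knockout livers (0.48, SE 0.20, limma adjusted p = 0.769). The terminator-binding factor gene Ttf1 differed by -0.23 (SE 0.17), with all knockout livers lower, and Taf1b by 0.36 (SE 0.31).
The 37 tested genes of the small subunit processome and of small-subunit maturation had 11 above 0 and 26 below (median -0.093), with 3 lower at an unadjusted p under 0.05 (8.11% of the list, against 3.42% of all genes). Mphosph10, a U3 particle protein, was at 8.27, 8.42 and 7.92 in wild-type and 7.14, 7.34 and 7.95 in knockout livers (-0.73, SE 0.26, adjusted p = 0.76). Wdr36 was at 9.68, 9.74 and 9.33 against 8.50, 8.93 and 9.41 (-0.64, SE 0.26), and Nol11 at 8.00, 7.88 and 7.93 against 7.51, 7.33 and 7.68 (-0.43, SE 0.18). Mphosph10 and Wdr36 overlapped through wild-type replicate 3 and knockout replicate 3, and Nol11 did not overlap.
The 37 tested genes of large-subunit assembly had 22 above 0 and 15 below (median 0.060), none at an unadjusted p under 0.05 (0). Those with the smallest p were Rsl1d1 (0.39, SE 0.18), Sbds (0.51, SE 0.25), which encodes the factor mutated in Shwachman-Diamond syndrome, and the GTPase gene Gnl2 (-0.40, SE 0.21). The RNA exosome and RNase MRP list, whose products trim and cut ribosomal RNA precursors, had 7 of 17 genes above 0 and 10 below (median -0.067) and 0 at an unadjusted p under 0.05. Its genes with the smallest p were Exosc7 (0.65, SE 0.31), Mphosph6 (-0.45, SE 0.22) and Exosc4 (-0.30, SE 0.18).
Of 30 further MYC targets tested, 19 were above 0 and 11 below (median 0.030), where 45.4% of all genes were above 0. At an unadjusted p under 0.05 there was 1 gene, which was higher (3.33% of the list, against 3.04% of all genes). This was the transferrin receptor gene Tfrc, at 10.07, 9.80 and 9.85 in wild-type and 10.60, 10.26 and 10.30 in knockout livers (0.48, SE 0.19, limma adjusted p = 0.769). The lactate transporter gene Slc16a1 differed by 0.57 (SE 0.28) and the pyruvate kinase gene Pkm by 0.36 (SE 0.18). For comparison, the 41 tested cytosolic ribosomal protein genes had a median difference of -0.116 (18 above 0, 23 below) and the 33 genes of the DNA replication and cell cycle list one of 0.997 (30 above 0, 3 below; 18 higher at an unadjusted p under 0.05).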

How the data were processed

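Per the submitters' processing notes, the authors made the deposited values with GCRMA 2.20.0 in R 2.11.1, which gives 1 background-corrected value per probe set and array. The sources used here do not give its settings. As deposited, values run from 0.841 to 13.969, a log2 scale, with array medians of 5.69 to 5.77. They carry no detection call, and near the floor differences are not proportional to RNA amounts. Of 22626 probe sets, 20380 carried 1 gene symbol in the platform annotation, 691 several and 1555 none. Each gene was read from its brightest probe set, and 8343 of 12393 genes had a mean of at least 4.

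Knockout was compared with wild type by limma 3.58.1 in R 4.3.3 (lmFit, eBayes, 2-sided, 6 arrays, no replicate block), with Benjamini-Hochberg adjustment over all genes tested and a threshold of 0.05. The fit was tested on simulated data with known changes. Errors of differences are moderated standard errors. Since the labels do not state that each sample is a separate animal, the p-values reflect only how these samples vary, and that variation may be technical. The number of arrays limits the precision.

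The genes, their lists and the tests were chosen with earlier results of these data known. Named with values in every liver were all polymerase I genes and other MYC targets, the 5 genes of each other subgroup with the smallest p, Ncl, Npm1, Fbl, Nop56 and Gnl3, and a choice of the up to 3 genes with the smallest p of each wider list. Rrs1 was added after its values were seen.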

Additional observations from a re-analysis of the deposited data

How the results depend on the processing

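No call among the 39 genes changed under no filter on dim genes, a stricter filter at a mean of 6, averaged probe sets, quantile normalization, median centring, trend and robust eBayes, the replicate block, or the fits without 1 array (0 calls in each; the stricter filter left 36 of the 39 genes). Array weights gave 3 calls (Ebna1bp2 0.55, Nop58 -0.44 and Ldha -0.49) and 1748 over all genes in place of 2; that fit weighted knockout replicate 2 at 6.12 and wild-type replicate 2 at 2.54, all others at 0.310 to 0.887. Averaged probe sets left 1 call over all genes, and the fits without 1 array gave 1 to 38. Deviations from the group means correlated at -0.09, -0.09 and -0.19 between livers of the same replicate number, and at -0.25 to 0.31 between the other pairs. With so few livers these values cannot tell whether the livers were paired. With the replicate block 2 genes were called over all and 0 of the 39, and none of the 39 had an unadjusted p under 0.05 (0).

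The median of all 39 genes was 0.051 under the stricter filter, 0.020 with averaged probe sets, and -0.033 to 0.055 without 1 array. The polymerase I median was 0.072 under the stricter filter, 0.127 with averaged probe sets, 0.025 with array weights and -0.063 to 0.058 without 1 array; that of processing factors was -0.011 with array weights and otherwise 0.007 to 0.114 without 1 array. The snoRNP median was -0.034 with averaged probe sets, -0.241 with array weights and -0.242 to -0.027 without 1 array. That of other MYC targets was -0.356 with array weights and -0.381 to -0.016 without 1 array. The share of the 38 genes with a match, 18.4%, was 63.2% with near forms and 13.2% within 100 bases of the start. Of all genes with a window these shares were 8.09%, 30.9% and 5.04%.

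Signs turned, all without a call, with averaged probe sets in Polr1a (0.13), Polr1c (0.14), Polr1d (0.12), Nop56 (0.02), Pes1 (-0.10), Imp4 (-0.36) and Odc1 (-0.03). They turned with quantile normalization in Bop1 (0.01) and Wdr74 (0.00), and with median centring in Polr1c (0.02), Bop1 (0.03), Wdr12 (0.03), Wdr74 (0.03) and Bysl (0.01). They turned with array weights in Myc (0.11), Polr1b (0.00), Polr1c (0.05), Pes1 (-0.02), Wdr43 (-0.06), Noc4l (0.03), Gnl3 (0.00), Imp4 (-0.03) and Emg1 (-0.19). Without 1 array the range held both signs for Myc (-0.38 to 0.15), Polr1a (-0.37 to 0.06), Polr1b (-0.30 to 0.06), Polr1c (-0.12 to 0.13), Nop56 (-0.51 to 0.09), Rrp9 (-0.24 to 0.08), Nop2 (-0.15 to 0.31), Bop1 (-0.19 to 0.10), Wdr12 (-0.12 to 0.14), Wdr43 (-0.07 to 0.18), Wdr74 (-0.11 to 0.10), Rrs1 (-0.09 to 0.60), Noc4l (-0.40 to 0.00), Bysl (-0.29 to 0.19), Ppan (-0.13 to 0.25), Emg1 (-0.21 to 0.23) and Odc1 (-0.13 to 0.38). Construction shows the cause for averaged probe sets and for median centring, which moves the difference of every gene by the same amount. For the other settings the cause was not tested. Signal over background could not be judged, since the values carry no detection call.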
